A study of Mus musculus with 6 samples.

Results

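The TREM receptors and DAP adaptors were taken as 7 gene symbols, 5 receptors (Trem1, Trem2, Trem3, Treml2 and Treml4) and 2 adaptors (Tyrobp, which encodes DAP12, and Hcst, which encodes DAP10). All 7 were found among the 30445 genes of the count table. Messenger RNA was sequenced from mouse cells in 6 libraries, 2 in each of 3 groups. The groups were embryonic fibroblasts (MEF), cells that the labels call a myeloid-like cell complex (MCC), and induced macrophages (iMac). All of them are labelled wild type, and the series' title says that c-Myc alone reprogrammed the fibroblasts. The sources used here give no vector, culture time or embryo age, and do not state how the MCC relate to the iMac.

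TREM receptors are surface proteins with an immunoglobulin domain and a short cytoplasmic tail. Trem1, Trem2 and Trem3 hold a charged residue in the membrane through which they pair with Tyrobp. Tyrobp carries an immunoreceptor tyrosine-based activation motif (ITAM), and once this is phosphorylated by Src family kinases it docks the kinase Syk. Hcst carries a different motif that binds phosphoinositide 3-kinase and Grb2, and it is best known as the partner of Klrk1 on natural killer cells. In the mononuclear phagocytes of brain, bone and fat, Trem2 is known as a receptor for lipids and lipoproteins that sustains survival and phagocytosis. Trem1 is known for amplifying inflammatory signals in neutrophils and monocytes.

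Trem2 and Tyrobp went from near 0 in the fibroblasts to a high level in MCC and iMac. Hcst rose as well, but stayed low. Trem1, Treml2, Treml4 and Trem3 had their highest values in MCC, and in all 4 both iMac libraries lay below both MCC libraries. For Trem2, Tyrobp and Hcst the order of MCC and iMac was the other way round. None of the differences between iMac and MCC passed the main test, and which of them passed depended on how the spread was estimated.

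The 5 receptor genes lie together on the plus strand of chromosome 17 (GRCm38, GENCODE release M21), within 121380 bases from the start of Trem1 to the end of Trem2. Trem1 lies at chr17:48232768-48246924, Trem3 at chr17:48247777-48258841, Treml4 at chr17:48264295-48275360, Treml2 at chr17:48299498-48312533 and Trem2 at chr17:48346401-48354147. The adaptor genes lie back to back on chromosome 7, Tyrobp at chr7:30413760-30417585 on the plus strand and Hcst at chr7:30417712-30419854 on the minus strand. Their 3′ ends are 126 bases apart, and no exonic base of any of the 7 genes is shared with another annotated gene. All 7 are annotated as protein coding.

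The promoters of 3 receptors that differed in their order between MCC and iMac are shown, since the cluster's genes did not all move together. They come from RefSeq on GRCm38.p6, which had windows for 4 of the 7 genes, and run from 250 bases before to 50 bases after the RefSeq start of the gene, 5′ to 3′ on the gene's strand. Capitals mark GAGGAA or its reverse complement TTCCTC, the core recognised by PU.1, the master regulator of macrophage genes. Trem2 is at chr17:48346151-48346450, Trem1 at chr17:48232489-48232788 and Treml4 at chr17:48264045-48264344, all on the plus strand.
Trem2: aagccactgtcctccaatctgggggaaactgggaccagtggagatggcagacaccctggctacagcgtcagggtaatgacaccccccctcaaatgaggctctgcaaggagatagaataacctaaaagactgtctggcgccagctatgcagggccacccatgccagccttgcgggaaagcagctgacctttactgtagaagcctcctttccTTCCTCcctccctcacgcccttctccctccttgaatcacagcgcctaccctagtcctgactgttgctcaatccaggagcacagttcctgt
Trem1: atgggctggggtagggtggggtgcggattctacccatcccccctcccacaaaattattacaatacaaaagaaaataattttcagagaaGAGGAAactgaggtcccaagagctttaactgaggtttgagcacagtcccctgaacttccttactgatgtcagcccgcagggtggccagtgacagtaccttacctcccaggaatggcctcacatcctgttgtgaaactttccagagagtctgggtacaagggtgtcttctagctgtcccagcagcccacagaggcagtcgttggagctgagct
Treml4: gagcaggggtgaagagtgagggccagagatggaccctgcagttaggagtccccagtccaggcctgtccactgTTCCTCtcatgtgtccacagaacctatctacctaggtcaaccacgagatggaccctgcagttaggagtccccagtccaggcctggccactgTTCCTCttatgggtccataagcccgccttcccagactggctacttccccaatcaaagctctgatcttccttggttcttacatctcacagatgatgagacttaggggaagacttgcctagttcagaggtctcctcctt
The match lies with its first base at -40 from the start in Trem2, at -162 in Trem1, and at -178 and -87 in Treml4. The window of Hcst (chr7:30419805-30420104) holds none. Searched on both strands, GAGGAA is in 28.3% of the 32851 windows of this length, so these matches describe the letters only. The core TTNNGNAA of C/EBP factors, found in 40.7% of windows, is in the windows of Trem1, Trem2, Treml4 and Hcst. The E-box CACGTG, the site that c-Myc binds with its partner and which 7.15% of windows hold, is in none of these 4. It is in the window of the neighbouring gene Treml1, at -69. The core TGANTCA of AP-1 (7.81% of windows) is in that of Trem2 alone among these 5 windows, at -9, and the TATA box letters TATAAA (13.6%) are in none of them. TTNNGNAA can overlap the other motifs, and both strands were searched for all 5.

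Library totals ran from 34389817 to 39174367 counts, and 18613 genes had enough counts to be tested. On the first principal component, with 89.7% of the variance, MCC library 1 lay at 38.9 and MCC library 2 at 132.5, between the MEF (-250.3 and -249.5) and the iMac (164.7 and 163.7). The summed level of 10 fibroblast markers was 15500 to 35100 CPM (counts per 1000000 of the scaled library total) in MEF, 574 to 2380 in MCC, with the higher value in library 1, and 59.3 to 64.1 in iMac. That of 10 macrophage markers was 26.0 to 52.0 in MEF, 13000 to 13700 in MCC and 19600 to 23500 in iMac. The labels do not say that the libraries of a group came from separate cultures, so the p-values measure the spread between these libraries, which may be technical. In such bulk RNA, fewer cells of a type and less RNA per cell cannot be told apart.

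Trem2 had 1 and 2 counts in the MEF libraries, 10585 and 10985 in MCC, then 12609 and 13034 in iMac. The fibroblasts held next to no Trem2 RNA, and the 3 groups did not overlap. Its level in MEF was 0.0393 ± 0.0173 CPM, against 285 ± 13.1 in MCC and 385 ± 11.7 in iMac (mean ± SD, n = 2 libraries). Over MEF this is a ratio of 7178 in MCC, with a 95% counting interval of 2456 to 34810, and of 9709 (3322 to 47080) in iMac. The edgeR quasi-likelihood test with Benjamini-Hochberg adjustment gave adjusted p = 4.68e-05 and 4.18e-05. Intervals and floors here cover counting error only.

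Tyrobp, the adaptor through which Trem2 signals, had 6 and 3 counts in MEF, 16663 and 18827 in MCC, then 23754 and 24589 in iMac. Like Trem2, its 3 groups did not overlap, and the iMac libraries were the highest. MEF had a mean of 0.120 ± 0.0604 CPM, MCC one of 469 ± 49.7 and iMac one of 725 ± 22.7. The log2 fold change over MEF was 11.90 ± 0.31 (SE) in MCC and 12.53 ± 0.31 in iMac (edgeR, adjusted p = 7.27e-05 and 5.91e-05).

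Hcst, the second adaptor, had 1 and 0 counts in MEF, 66 and 77 in MCC, then 80 and 90 in iMac. Both cell types made from fibroblasts thus had the RNA at a low level, 1.89 ± 0.243 CPM in MCC and 2.55 ± 0.230 in iMac. The ratio over MEF was 143 (25.2 to 5678) in MCC and 193 (34.2 to 7671) in iMac, with adjusted p = 0.0021 and 0.00141 by edgeR. Hcst is known from natural killer and T cells and from myeloid cells too. The 4 natural killer markers in the table summed to 0 to 0.078 CPM in MCC and to 0 in iMac, with Klrb1c, Prf1 and Klre1 at 0 in both. The 7 T cell markers in the table summed to 2.11 to 2.30 CPM in MCC and 2.15 to 2.53 in iMac, below the 4.01 to 5.15 of MEF, with Cd8a at 0 in MCC and Cd3g, Trac and Trbc2 at 0 in iMac. Trbc2 was the largest part of the sum in MEF (2.78 ± 0.946 CPM). Most of the sum in MCC and iMac was Lck, at 1.12 ± 0.669 CPM in MEF, 1.82 ± 0.038 in MCC and 1.89 ± 0.352 in iMac. Cd4 was at 0.0529 ± 0.0019, 0.280 ± 0.285 and 0.375 ± 0.0611 CPM. Neither Lck nor Cd4 was called against MEF.

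Treml2, a receptor described on B cells, neutrophils and macrophages, had 0 counts in both MEF libraries, 491 and 261 in MCC, then 91 and 79 in iMac. MCC library 1 was the highest of all, and no iMac library reached an MCC library. The level was 9.88 ± 4.09 CPM in MCC, at least 250-fold higher than in MEF against a floor of 3 counts over the group, and 2.55 ± 0.237 in iMac, at least 64.4-fold higher (edgeR, adjusted p = 0.00181 and 0.00231). The 6 B cell markers in the table summed to 30.2 to 37.2 CPM in MEF, 61.6 to 70.8 in MCC and 71.3 to 125 in iMac. Nearly all of the sum was Ighm in MCC (58.4 and 69.3 CPM) and iMac (71.2 and 124), and Ebf1 in MEF (36.3 and 29.5 CPM). Cd79a was at 0.301 ± 0.157 CPM in MEF, 0.266 ± 0.266 in MCC and 0.196 ± 0.192 in iMac, with Pax5 at 0 in MCC and Ms4a1 and Pax5 at 0 in iMac. Cd79b, too low to test, had 0 counts in MEF, 10 and 23 in MCC, then 1 and 4 in iMac. Both of its iMac libraries lay below both MCC libraries, as those of Treml2 did. Ms4a1 had 0 and 4 counts in MCC. The part of B cells in the Treml2 values was not tested.

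Trem1 also had 0 counts in both MEF libraries, with 115 and 142 in MCC and 9 and 27 in iMac. The MCC libraries stood well above the iMac libraries, which differed from each other by more than the MCC libraries did in relative terms. Its level was 3.40 ± 0.571 CPM in MCC, at least 85.5-fold higher than in MEF (adjusted p = 0.00546, edgeR), and 0.541 ± 0.386 in iMac, at least 13.6-fold higher (adjusted p = 0.0129).

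Treml4, a receptor of some monocytes and dendritic cells that binds dying cells, had 0 counts in MEF, 17 and 34 in MCC, then 0 and 2 in iMac. It was at least 17.0-fold higher in MCC than in MEF, with adjusted p = 0.0184 by edgeR. This call was lost on leaving out MCC library 2 (adjusted p = 0.055), MEF library 1 (0.0569) or MEF library 2 (0.0549). In iMac it was at or under the floor, as in MEF, and no fold is given.

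Trem3, a receptor that pairs with Tyrobp in the mouse, had the fewest counts of the 7, 0 and 1 counts in MEF, 11 and 8 in MCC, then 0 and 2 in iMac. It did not pass the filter on low counts and was not tested. The ratio of MCC to MEF was 19.0, with a 95% counting interval of 3.02 to 788, and iMac and MEF were both at or under the floor.

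**Figure D1:**
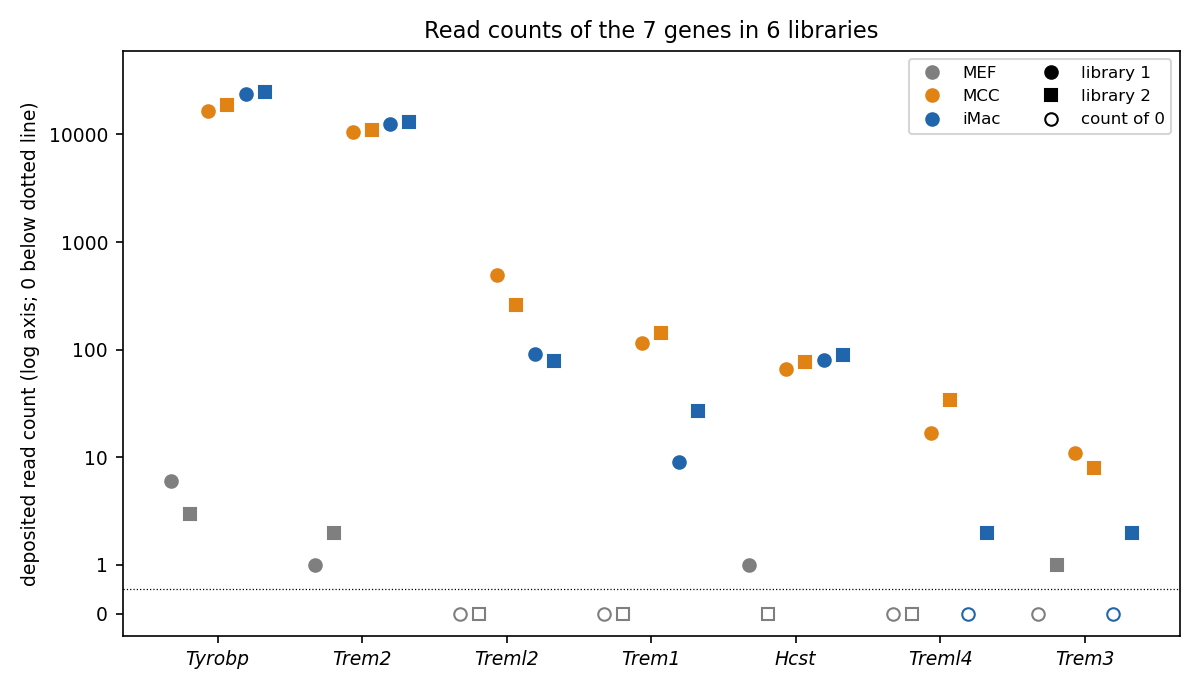
Deposited read counts (log axis, 0 drawn below the dotted line) of the 7 genes in 6 libraries; circles are library 1 and squares library 2 of MEF (grey), MCC (orange) and iMac (blue). Tyrobp and Trem2 have 10585 counts or more in every MCC and iMac library, while Treml2, Trem1, Treml4 and Trem3 sit higher in MCC than in iMac.

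Of the 6 genes that could be tested, 6 were called higher in MCC than in MEF, where 23.4% of all genes tested were called higher and 29.6% lower. In iMac against MEF it was 5 of 6, where 25.1% of all genes were called higher and 32.4% lower, and the remaining gene was Treml4 (adjusted p = 0.268, edgeR). Both MCC libraries lay above both MEF libraries in 7 of the 7 genes, as they did in 38.2% of all genes tested, and both iMac libraries did in 5 of the 7, as in 39.1% of all genes. The counts of calls leave out Trem3. Each of the 6 tested genes had at most 9 counts over MEF and passed the filter on low counts only through MCC or iMac. The direction of these calls was thus fixed by the filter. Both comparisons share the MEF libraries.

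The comparison of iMac with MCC asks how the set differed between the 2 kinds of reprogrammed cells. Trem2 was 1.35-fold, Tyrobp 1.55-fold and Hcst 1.35-fold higher in iMac by the ratio of mean CPM. Treml2 was 3.87-fold and Trem1 6.27-fold lower, Treml4 was lower by a ratio of 22.4 (5.90 to 190) and Trem3 by one of 8.35 (2.01 to 73.9). The libraries of the groups did not overlap for any of these genes. Among all genes tested, 27.7% had both iMac libraries higher and 27.9% both lower, so that more than 1 gene in 2 shares this separation.

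By edgeR over all 6 libraries, 0 of the 6 tested genes were called, where 0.0215% of all genes tested were. At an unadjusted p under 0.05 there were 5 of 6, all but Hcst, against 18.2% of all genes. The log2 fold change was 0.44 ± 0.11 for Trem2 (adjusted p = 0.184), 0.63 ± 0.18 for Tyrobp (0.206) and 0.43 ± 0.41 for Hcst (0.607). It was -1.95 ± 0.40 for Treml2 (0.172), -2.64 ± 0.63 for Trem1 (0.188) and -4.34 ± 1.08 for Treml4 (0.2).

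Other estimates of the spread gave other counts. DESeq2 called 4 of the 6, with Trem2 (adjusted p = 1.18e-07) and Tyrobp (1.29e-06) higher, and Treml2 (0.00384) and Trem1 (0.0257) lower, where it called 14.6% of all genes. It gave no adjusted p for Treml4. The edgeR test on only the MCC and iMac libraries called 3, Trem2 (adjusted p = 0.0298), Tyrobp (0.0255) and Treml2 (0.0399), where it called 8.6% of all genes. Limma-voom called 0, where it called 0.784% of all genes.

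MCC library 1, the one nearer to the fibroblasts, did not set the direction for any of the 6. Without it the log2 fold change was 0.36 for Trem2, 0.50 for Tyrobp, 0.28 for Hcst, -1.48 for Treml2, -2.83 for Trem1 and -4.79 for Treml4. Without MCC library 2 that of Treml2 was -2.46 and passed the test (adjusted p = 0.034, edgeR). Without iMac library 2 no Treml4 count was left in iMac, and Treml4 did not pass the test (adjusted p = 0.644). With library totals in place of TMM scaling the median of all genes shifted by -0.139, and Trem2 (0.30), Tyrobp (0.49) and Hcst (0.30) kept their sign.

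Markers of macrophages and of neutrophils were compared between MCC and iMac too. The sum of the 10 macrophage markers was higher in both iMac libraries, mostly through Lyz2 (6149 ± 199 CPM in MCC and 13400 ± 2378 in iMac). In 5 of the 10 both iMac libraries were the higher, as for Trem2 and Tyrobp, beside 27.7% of all genes tested. Mrc1 was lower in both iMac libraries (2105 ± 157 CPM in MCC and 1362 ± 1.85 in iMac), and the rest overlapped. Of 12 neutrophil markers, 9 were in the table. Their sum went from 101 to 108 CPM in MCC to 147 to 151 in iMac, mostly Csf3r and Mmp8, opposite to Trem1. S100a8, a calcium-binding protein abundant in neutrophils, was low and had the order of Trem1, with 1.09 and 0.669 CPM in MCC and 0.179 and 0.0302 in iMac. Ly6g and Mpo were at 0 in all MCC and iMac libraries. The part of such cells in the differences was not tested.

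Levels of different genes were compared per length, as CPM over the annotated exonic length in kilobases (RPKM). In iMac the order was Tyrobp (1090 ± 34.0), Trem2 (77.8 ± 2.36), Hcst (3.53 ± 0.318), Treml2 (0.519 ± 0.0482), Trem1 (0.181 ± 0.129), Trem3 (0.0303 ± 0.0429) and Treml4 (0.0151 ± 0.0214). Trem3 and Treml4 did not differ beyond their spread there. In MCC the order was Tyrobp (702 ± 74.5), Trem2 (57.5 ± 2.65), Hcst (2.62 ± 0.336), Treml2 (2.01 ± 0.832), Trem1 (1.13 ± 0.191), Treml4 (0.338 ± 0.165) and Trem3 (0.252 ± 0.0513). There the libraries of Hcst and Treml2 overlapped, as did those of Treml4 and Trem3.

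Trem2 RNA made up most of the receptor RNA. Its share of the RPKM summed over the 5 receptors was 93.1% and 94.7% in the MCC libraries and 99.2% and 99.0% in the iMac libraries. Treml2 held 4.35% and 2.26% in MCC and 0.720% and 0.603% in iMac, and Trem1 1.67% and 2.02% against 0.117% and 0.338%. With 2 libraries against 2, the smallest p of a two-sided exact permutation test is 0.333, so these shares carry no test.

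The adaptors were far from equal. Per length there was 273 and 265 times as much Tyrobp as Hcst RNA in MCC, and 321 and 296 times in iMac. Tyrobp exceeded Trem2 by 11.7 and 12.7 times in MCC and by 14.0 times in both iMac libraries. Both ratios depend on the lengths used. With principal transcripts that of Tyrobp to Hcst was 198 and 192 in MCC and 233 and 214 in iMac. The 4946 exonic bases of Trem2 include a transcript with a retained intron, while its principal transcript has 1088 bases. With principal transcripts the ratio of Tyrobp to Trem2 was 3.04 and 3.31 in MCC and 3.63 and 3.64 in iMac, Trem2 was at 262 ± 12.1 RPKM in MCC and 354 ± 10.7 in iMac, and its share of the receptors was 97.1% and 98.1% in MCC and 99.6% in both iMac libraries. Treml2 then stood at 4.72 ± 1.95 RPKM in MCC, beside 4.27 ± 0.549 for Hcst.

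The Trem cluster holds other family members that were no part of the 7. Treml1, the TREM-like receptor of platelets, had 0 counts in MEF, 274 and 393 in MCC, then 393 and 340 in iMac. It was at least 222-fold higher in MCC and 278-fold in iMac than in MEF, and unlike its neighbours Trem1 and Treml2 its MCC and iMac libraries overlapped. Among other platelet markers, Itga2b fell in MCC and in iMac (log2 fold changes of -2.28 ± 0.33 and -2.39 ± 0.34), while the chemokine gene Pf4 rose to 276 ± 15.9 CPM in iMac. B430306N03Rik, which RefSeq lists as Treml6, had 1 and 0 counts in MEF, 325 and 367 in MCC, then 388 and 184 in iMac, and its MCC and iMac libraries overlapped too. 9830107B12Rik, listed as Trem5, had no more than 5 counts in any library.

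Within 200 kb of the cluster, 7 of 11 other protein-coding genes were in the table and 6 were tested. In both comparisons with MEF 4 of the 6 were called higher, Treml1, B430306N03Rik, A530064D06Rik and Nfya. Nfya aside, each of these had at most 2 counts over MEF and passed the filter on low counts only through MCC or iMac. The direction of those calls was thus fixed by the filter. Nfya, a subunit of the CCAAT-binding factor NF-Y, rose by 1.18 ± 0.11 in MCC and 1.54 ± 0.11 in iMac (log2). A530064D06Rik was at 0.726 ± 0.0331 CPM in MCC, and its call there was lost without MEF library 1 (adjusted p = 0.0877) or MEF library 2 (0.0882). In iMac it was at 0.404 ± 0.400 CPM, and its call was lost without any library of MCC or iMac but iMac library 2, and without either MEF library (adjusted p = 0.0527 to 0.137). Around Tyrobp and Hcst, 21 of 28 such genes were tested, with 7 higher and 6 lower in MCC and 6 and 6 in iMac. These shares lie near those over all genes tested, 23.4% higher and 29.6% lower in MCC and 25.1% and 32.4% in iMac. The nearest, Nfkbid, a regulator of NF-kappaB that begins 1877 bases from the start of Hcst, rose by 5.79 ± 0.30 and 5.20 ± 0.29 on the log2 scale.

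**Figure D2:**
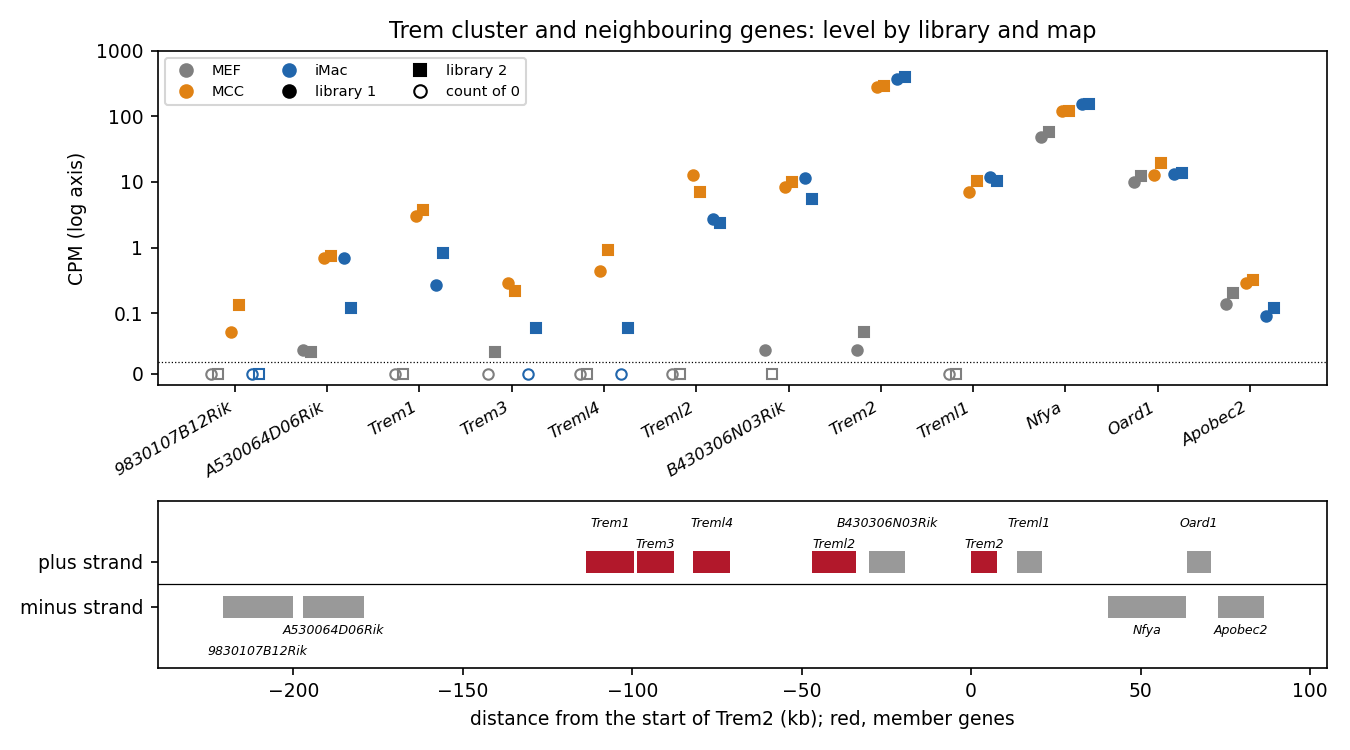
Top, CPM (log axis, 0 below the dotted line) of the genes of the Trem cluster and its neighbours in the 6 libraries, in the order of the map; bottom, their positions by strand as distance in kb from the start of Trem2, with the 5 receptors of the set in red. Trem1, Trem3, Treml4 and Treml2 are lower in iMac than in MCC, while Trem2, further along, is higher and Treml1 overlaps.

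Of 16 other receptors known to pair with Tyrobp, 14 were in the table and 10 were tested. All of these 10 were called higher in MCC and in iMac than in MEF. Cd300lb aside, each had at most 2 counts over MEF and passed the filter on low counts only through MCC and iMac, so the direction of those calls was fixed by the filter. Of the 4 too low to test, Klra4, a receptor of natural killer cells, had 19 and 8 counts in MEF, 1 and 0 in MCC, then 0 in both iMac libraries. It was thus at least 7.92-fold lower in iMac than in MEF. Klra8, another of the 4, had 0 counts in MEF, 1 and 2 in MCC, then 9 and 12 in iMac. It went the other way, at least 7.95-fold higher in iMac than in MEF. Cd300lb, an activating receptor of myeloid cells, had the most counts and rose from 0.683 ± 0.237 CPM in MEF to 136 ± 14.3 in MCC and 231 ± 24.2 in iMac. Cd300c2, of the same family, had 1 count in MEF in all and reached 72.5 ± 0.271 and 100 ± 8.07 CPM.

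The C-type lectin receptor Clec5a was at 22.8 ± 0.976 CPM in MCC and 11.6 ± 1.20 in iMac, a ratio to MEF of 862 (238 to 7120) and 438 (121 to 3622). Sirpb1c was at least 250-fold and 231-fold higher than in MEF, but it, Sirpb1a and Sirpb1b are close copies among which reads may have been divided. In iMac against MCC 0 of the 10 were called and the median was 0.04. In 2 of them both iMac libraries were the higher and in 2 the lower, beside 3 and 3 of the 6 tested TREM and DAP genes. Fcer1g, the other ITAM chain of myeloid cells, which serves Fc receptors, rose by 10.69 ± 0.34 in MCC and 11.30 ± 0.35 in iMac, to 246 ± 25.0 and 375 ± 12.3 CPM. It had 11 counts over MEF and passed the filter only through MCC and iMac, which fixed its direction. The only other tested ITAM chain, Cd79a of B cells, was not called in either, and without MCC library 1 or either iMac library a further chain passed the filter and the count in MCC was 2.

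**Figure D3:**
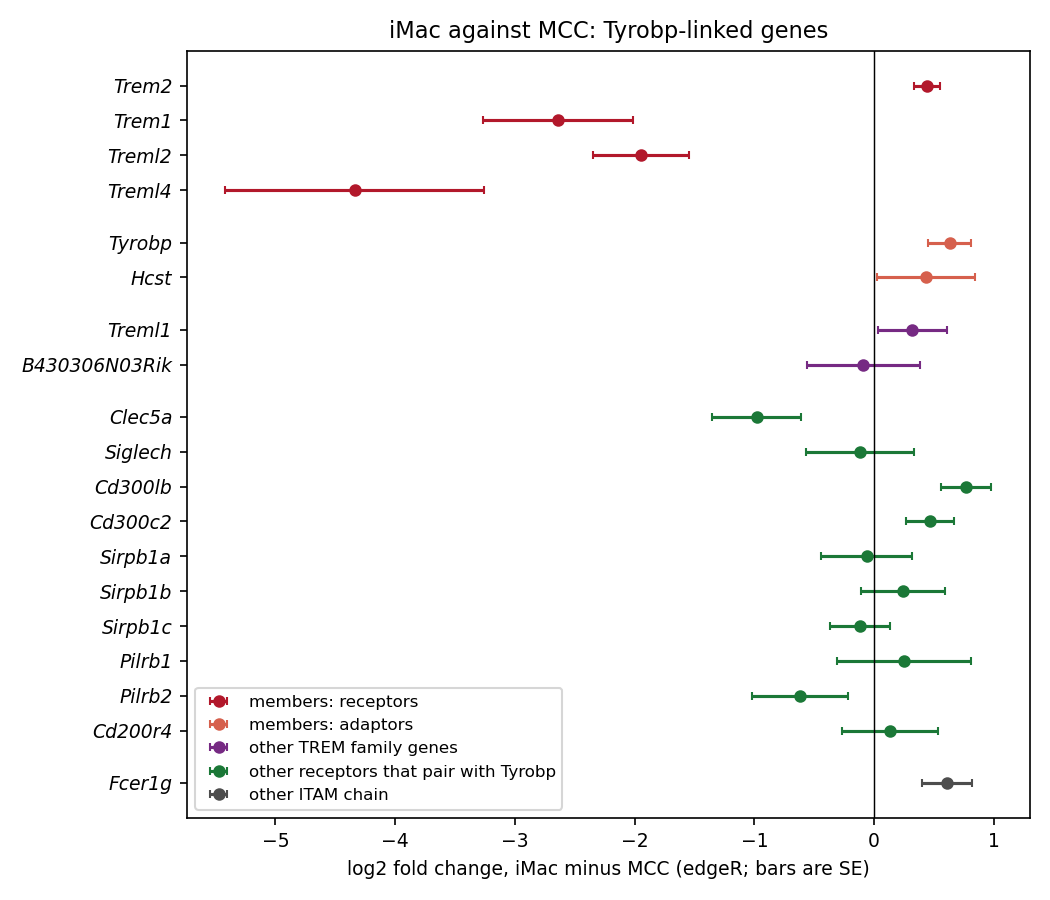
Log2 fold change of iMac minus MCC with its SE (edgeR, 6 libraries) for the tested TREM and DAP genes, other TREM family genes, other receptors that pair with Tyrobp, and Fcer1g. Trem1, Treml2 and Treml4 lie between -1.95 and -4.34, while the other genes lie between -0.98 (Clec5a) and 0.77 (Cd300lb).

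The pathway below the adaptors was followed through 30 listed genes, of which 28 were tested. Of these, 20 rose and 4 fell in MCC, and 21 rose and 4 fell in iMac, with medians of 2.14 and 2.55 on the log2 scale. Over all genes tested, 23.4% rose and 29.6% fell in MCC, and 25.1% and 32.4% in iMac. These shares are the background for the lists below too. Syk, the kinase that docks on the ITAM, was at 18.6 and 19.5 CPM in MEF, 219 and 232 in MCC, then 427 and 376 in iMac. It rose by 3.56 ± 0.11 and 4.40 ± 0.12 from a level that fibroblasts already had. Zap70, its relative in T cells, was at 0 in MCC and iMac.

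Other genes of the pathway rose by more than Syk. Plcg2, a phospholipase C of blood cells that MEF had at 284 counts in each library, rose by 4.82 ± 0.11 and 4.73 ± 0.11, and Pik3cd, a catalytic subunit of phosphoinositide 3-kinase, with 185 and 280 counts in MEF, by 5.26 ± 0.22 and 5.36 ± 0.22. Btk, a kinase that acts on phospholipase C, had a ratio to MEF of 4472 (1238 to 36930) in MCC and 4801 (1329 to 39650) in iMac. Vav1, an exchange factor for Rac, rose by 11.35 ± 0.40 and 11.43 ± 0.40. Card9, which links Syk to NF-kappaB, rose by 9.86 ± 0.71 and 9.43 ± 0.70, and Pik3ap1, an adaptor of phosphoinositide 3-kinase, by 9.41 ± 0.48 and 9.93 ± 0.49. Btk, Vav1 and Card9 had at most 6 counts over MEF, and Pik3cg of the same list had 13. These genes passed the filter on low counts only through MCC and iMac, which fixed their direction. Pik3ap1 (9 and 27 counts in MEF), Lcp2 (5 and 17) and Lat (10 and 11) also needed MCC or iMac libraries to pass it.

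The genes that fell were the kinases Fyn and Src, the phospholipase Plcg1 and Pik3r1, a regulatory subunit of phosphoinositide 3-kinase. Src went from 115 ± 2.18 CPM in MEF to 19.9 ± 8.63 in MCC and 17.7 ± 4.38 in iMac. Plcg1 fell from 123 ± 5.56 CPM to 44.6 ± 5.96 and 51.1 ± 0.351, while its relative Plcg2 rose from 7.51 ± 0.270 to 212 ± 14.8 and 199 ± 0.306. The call of Pik3r1 was lost without MEF library 2 (adjusted p = 0.0627 in MCC and 0.0583 in iMac), MCC library 2 (0.0959 in MCC), iMac library 1 (0.053 and 0.111) or iMac library 2 (0.0531 and 0.115).

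Genes that restrain ITAM signalling rose along with those that carry it. Of 9 tested, 6 rose and 1 fell in MCC, and 5 rose and 1 fell in iMac. Inpp5d, the SHIP1 phosphatase that opposes phosphoinositide 3-kinase, went from 1.07 ± 0.244 CPM to 329 ± 6.49 and 330 ± 2.34. Ptpn6, the phosphatase SHP-1, rose by 7.61 ± 0.37 and 7.86 ± 0.37, and the adaptor Dok2 by 6.50 ± 0.25 and 7.19 ± 0.25. Ptpn11, the phosphatase SHP-2, fell by 0.98 ± 0.15 and by 1.11 ± 0.15. No gene of either list was called in iMac against MCC by edgeR on 6 libraries. There 6 of the 28 signalling genes and 3 of the 9 brakes had an unadjusted p under 0.05, beside 18.2% of all genes. DESeq2 called 6 and 2 of them, where it called 14.6% of all genes.

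**Figure D4:**
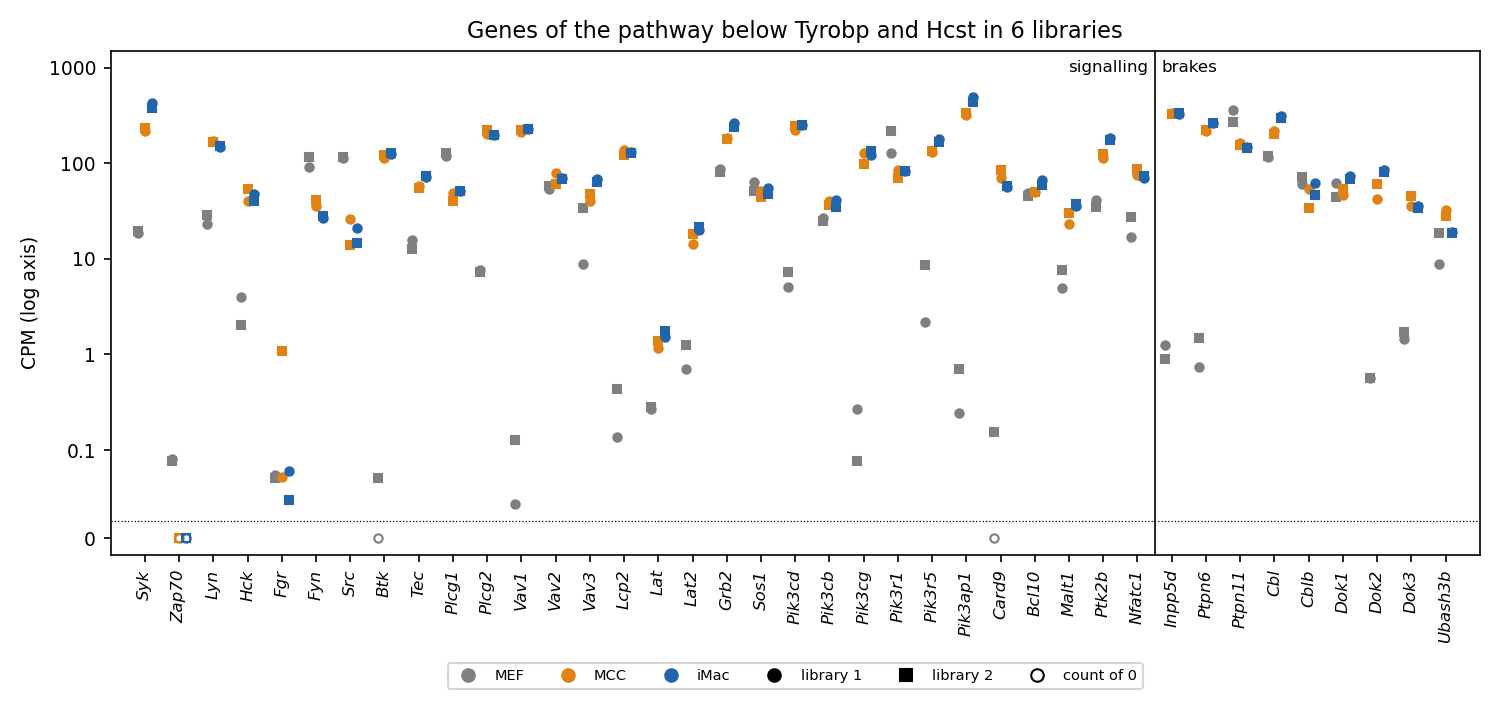
CPM (log axis, 0 below the dotted line) of 30 genes that signal below Tyrobp and Hcst and of 9 that restrain them, in 6 libraries of MEF (grey), MCC (orange) and iMac (blue). Most genes are higher in MCC and iMac than in MEF, and Fyn, Src, Plcg1, Pik3r1 and Ptpn11 are lower.

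Among genes for ligands of TREM receptors, 4 of 5 were tested. Apoe, a lipoprotein that Trem2 binds, was at 65.5 and 95.9 CPM in MEF, 11100 and 12030 in MCC, then 21020 and 17290 in iMac, and rose by 7.16 ± 0.32 and 7.89 ± 0.33. Lgals3, which encodes galectin-3, rose by 3.08 ± 0.22 and 3.93 ± 0.23. Clu, the lipoprotein clusterin, had a log2 fold change of -1.96 ± 0.77 in MCC (adjusted p = 0.0832, edgeR) and fell by 4.91 ± 0.89 in iMac. The call in iMac was lost without iMac library 1 (0.0589) or iMac library 2 (0.0668). Hmgb1, proposed as a ligand of Trem1, was not called in either. Without 1 of the libraries the count of called ligand genes was 2 to 3 in MCC and 2 to 4 in iMac.

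Trem2 protein is cut from the surface by Adam10 and Adam17, and the stub is then cleaved by gamma-secretase. Of 11 genes for these enzymes and their regulators, 7 rose and 3 fell in each comparison with MEF. Adam17 went from 88.8 ± 10.9 CPM in MEF to 202 ± 2.86 in MCC and 336 ± 3.13 in iMac. Adam10 was at 216 ± 4.75, 229 ± 8.36 and 172 ± 2.92 CPM, and was called lower in iMac, but not without iMac library 1 (adjusted p = 0.186), without iMac library 2 (0.153) or with no filter on low counts (0.0595). The inhibitor Timp3 went from 668 ± 85.5 CPM to 12.7 ± 15.1 in MCC, where library 1 was at 23.4 and library 2 at 1.98, and to 0.555 ± 0.0675 in iMac. Another annotated gene, Syn3 on the opposite strand, shares 21.3% of its exonic bases.

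Subunits of gamma-secretase moved in both directions. Psen2, a catalytic subunit, rose by 2.21 ± 0.14 and 2.53 ± 0.14. Aph1c rose by 3.49 ± 0.22 and 4.87 ± 0.23 and its close copy Aph1b fell by 1.18 ± 0.19 and by 1.47 ± 0.19, with reads that may have been divided between them. Ncstn, the substrate-binding subunit, fell by 0.30 ± 0.09 in MCC, a call lost on leaving out any of the 6 libraries (adjusted p = 0.0524 to 0.227).

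Plexin-A1, a receptor for semaphorins that joins Trem2 and Tyrobp in dendritic cells and osteoclasts, went the other way. Its gene Plxna1 fell from 415 ± 40.7 CPM in MEF to 101 ± 36.7 in MCC and 103 ± 10.2 in iMac. All 3 tested genes of this list fell in MCC and 2 in iMac. Sema6d, a ligand of Plexin-A1, had the largest fall of the 3 in MCC (a log2 fold change of -2.87 ± 0.57) and was not called in iMac (-1.37 ± 0.54, adjusted p = 0.0815). Sema6c fell in both, and its call in iMac was lost without MEF library 1 (adjusted p = 0.0628) or iMac library 1 (0.0728), which leaves 1 gene without the latter.

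A list of 16 genes whose rise in microglia around amyloid plaques is known to need Trem2 was all tested. In MCC 11 of them rose and 4 fell, and in iMac 10 rose and 4 fell, with medians of 3.23 and 3.76 on the log2 scale. Over all genes tested, 23.4% rose and 29.6% fell in MCC, and 25.1% and 32.4% in iMac. Beside Apoe, the phagocyte glycoprotein gene Gpnmb rose from 122 ± 24.6 CPM to 4753 ± 461 and 9538 ± 819, and the lipase gene Lpl from 69.5 ± 32.6 to 1365 ± 140 and 3024 ± 147. The lectin receptor Clec7a had 1 count in MEF in all and reached 39.3 ± 13.4 and 106 ± 19.9 CPM, and the chemokine gene Ccl6 rose by 10.29 ± 0.74 and 11.72 ± 0.76. The inhibitory receptor Lilrb4a reached 58.2 ± 6.46 and 101 ± 2.26 CPM, but other annotated genes share 35.9% of its exonic bases. Clec7a, Ccl6 and Lilrb4a had at most 5 counts over MEF, and of the same list Cst7 had 0 and Itgax 8. These genes passed the filter only through MCC and iMac, which fixed their direction. Spp1 was at 1324 ± 671 CPM in MEF, 4341 ± 2029 in MCC and 1348 ± 251 in iMac. Its call in MCC was lost with only the groups compared (adjusted p = 0.0673, edgeR) or with the replicate block (0.0711). The call was also lost without MEF library 1, MCC library 1 or either iMac library. The log2 fold change was 1.71 ± 0.50 in the main fit, 1.28 without MEF library 1, 1.15 without MCC library 1 and 1.73 without either iMac library.

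Those that fell were Axl, a receptor for dying cells, Csf1, the macrophage growth factor, the protease inhibitor Serpine2 and the pyrophosphate transporter Ank. Axl went from 563 ± 237 CPM in MEF to 144 ± 9.72 in MCC and 42.2 ± 9.50 in iMac, and Csf1 from 474 ± 221 to 47.7 ± 41.4 and 16.8 ± 8.22. The call of Csf1 was lost without MEF library 1 (adjusted p = 0.0859) or MEF library 2 (0.0542) in MCC, and without iMac library 1 (0.0644) in iMac. The fibroblasts had these 4 at high levels, as they had Spp1 of the same list, which did not fall. In iMac against MCC none of the 16 was called by edgeR, where 10 had an unadjusted p under 0.05, beside 18.2% of all genes. DESeq2 called 10, where it called 14.6% of all genes.

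Klrk1, the main partner of Hcst, was not analysed here. Among the genes for its ligands, 4 of 9 were tested. Ulbp1 rose by 1.25 ± 0.10 in MCC and 0.82 ± 0.10 in iMac. Raet1d fell by 1.26 ± 0.39 and by 3.20 ± 0.43, and its call in MCC was lost without MEF library 2 (adjusted p = 0.211), MCC library 1 (0.0651), MCC library 2 (0.18), iMac library 1 (0.0902) or iMac library 2 (0.0901). Raet1e fell by 1.67 ± 0.34 in iMac, a call lost without either iMac library (0.0618 and 0.0793). The Raet1 genes are close copies of each other.

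Many genes followed the profile of Trem2 and Tyrobp over the 6 libraries. The 5 protein-coding genes with the highest Pearson r of log2(CPM + 1) with Trem2 were Gpr65, Laptm5, Arhgap30, Cysltr1 and Pld4, with r from 0.9999 to 0.99995. With Tyrobp they were A630001G21Rik, Selplg, Laptm5, Cd53 and Arhgap30, with r from 0.99981 to 0.99988. Among 8869 candidate genes, 504 had r above 0.99 with Trem2 and 517 with Tyrobp, so the 5 named are a few among many. The 6 points fall into groups that differ in many genes, and r is given as a description.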

How the data were processed

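RNA was measured by sequencing in 6 libraries. The deposited table holds raw read counts per gene, made by the authors with STAR and featureCounts against mm10, per the submitters' processing notes. Versions, annotation, strand setting and the treatment of multi-mapped reads were not given in the sources used here. Libraries were made with an mRNA kit, per the labels' protocols.

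Counts were used as deposited. The test was edgeR 4.0.16 under R 4.3.3 (filterByExpr, TMM, two-sided quasi-likelihood test, all 6 libraries, group as the only term, 3 residual degrees of freedom). Adjustment was by Benjamini-Hochberg over 18613 genes, with a threshold of 0.05, and "rose", "fell" and "called" refer to it. The filter removed 11832 genes. Each standard error was derived from F and the fold change (prior count 0.125). The floor is 3 counts over a group, against which a fold over a group at 0 is a lower bound. Ratios to 1 to 3 counts have a 95% counting interval. Groups both at or under the floor get no fold. Exon lengths and positions come from GENCODE M21, and promoters from RefSeq. The fit was tested on simulated data.

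The 7 genes and the gene lists were chosen with earlier results of these data known. Named from each list were up to 3 called genes with the largest change and at least 5 CPM, and those that moved against the list's majority. Cd300lb, Syk, Zap70, Plcg2, Adam17, Hmgb1, Gpnmb, Lpl, Spp1, Raet1e and the marker genes were added after their values were seen. Of the platelet markers, 1 is not reported here. Alternatives were DESeq2 1.42.0, its median-ratio scaling within edgeR, limma-voom 3.58.1, no filter, a filter of 5 CPM in 2 libraries, only the groups compared, a replicate block and leaving out each library. Unscaled totals and the principal transcript's length were added after seeing the data. Figures used Python 3.11.15 with matplotlib 3.10.9.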

Additional observations from a re-analysis of the deposited data

How the results depend on the processing

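With a filter of 5 CPM in 2 libraries, 3 TREM and DAP genes could be tested and 3 were called higher than in MEF, in MCC as in iMac, beside 6 and 5 in the main fit. Leaving out 1 library gave 5 to 6 called genes in MCC against MEF and 5 in iMac against MEF. In iMac against MCC it gave 0 to 1, DESeq2 4 and the fit of only these groups 3, beside 0. The replicate numbers were not treated as pairs, since the correlation of the differences between libraries 1 and 2 was 0.131 for MEF and MCC, -0.007 for MEF and iMac and 0.002 for MCC and iMac. With the replicate block 6, 5 and 0 of the genes were called in the 3 comparisons, and over all genes 0 in iMac against MCC, beside 4. The single-gene fold changes of the set kept their sign under every alternative run, except that Treml4 in iMac against MEF had no counts on either side without iMac library 2. Over all genes, iMac against MEF gave 5173 calls without iMac library 1 and 5197 without iMac library 2, beside 10717, and iMac against MCC gave 2722 by DESeq2, 1364 in the fit of only these groups, 146 by limma-voom, 89 with no filter and 0 to 1202 with 1 library left out. The median of all genes shifted by more than 0.1 (log2) against MEF with no filter (-0.116 for MCC and -0.151 for iMac) and with 5 CPM (0.101 and 0.106), and between iMac and MCC without MCC library 2 (-0.11). A group left with 1 library is assumed to vary like the others. Depth limits Trem3, Treml4 and, in MEF, all 7 genes, which had at most 9 counts over the group. The causes of these differences were not tested.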

Other observations

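Trem2 and Tyrobp are also known from osteoclasts, the bone-resorbing relatives of macrophages, and a list of 7 osteoclast genes was followed in the same fit. Of the 6 tested, 4 were called higher in MCC than in MEF and 3 in iMac, with medians of 3.17 and 2.86 on the log2 scale. Over all genes tested, 23.4% were called higher in MCC and 25.1% in iMac. Atp6v0d2, a proton pump subunit needed for cell fusion, had 0 and 4 counts in MEF, and rose by 8.89 ± 0.71 in MCC and 10.06 ± 0.72 in iMac on the log2 scale. The fusion receptor Dcstamp reached only 0.849 ± 0.465 and 0.977 ± 0.410 CPM, and its partner Ocstamp at 1.54 ± 0.553 and 0.344 ± 0.274. The call of Ocstamp in MCC was lost without MEF library 2. Atp6v0d2, Dcstamp and Ocstamp had at most 4 counts over MEF and passed the filter on low counts only through MCC or iMac. This fixed the direction of their calls. Mmp9 rose by 3.10 ± 0.51 in iMac and was not called in MCC. Ctsk was at 35.0 ± 8.47 CPM in MEF, 54.0 ± 58.8 in MCC and 31.2 ± 23.4 in iMac. Its groups overlapped, and it was not called in either. Acp5, the tartrate-resistant phosphatase, was at 3.08 ± 0.895 CPM in MEF, 9.11 ± 1.23 in MCC and 3.62 ± 0.166 in iMac. Calcr, the calcitonin receptor, was at 0 in all MCC and iMac libraries.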
